A study of Mus musculus with 8 samples.

Results

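The ERK feedback regulators and PEA3 factors examined here are 10 genes in 4 roles, chosen by name: the ERK phosphatases Dusp4 and Dusp6, the Sprouty inhibitors Spry1, Spry2 and Spry4, the Spred inhibitors Spred1 and Spred2, and the ETS transcription factors Etv1, Etv4 and Etv5. Each of the 10 was present among the 13607 gene symbols counted. They were followed through 8 polyA RNA-seq libraries from C57BL/6J mouse astrocytes in which Yap and Taz are both floxed (Yapf/f;Tazf/f), in 4 groups of 2. Control astrocytes were not transformed and grew without doxycycline. HER2CA astrocytes carried lentiviral constructs for the doxycycline-inducible oncogene HER2CA, for the doxycycline transactivator rtTA and for CreERT2, a Cre recombinase that tamoxifen activates, and were collected after 15 days on doxycycline. A further group had the same constructs and doxycycline plus 1 µM 4-hydroxytamoxifen (4OH-TAM) for 15 days, to delete Yap and Taz during transformation. Gliomaspheres were passaged HER2CA spheres grown in suspension on doxycycline without 4OH-TAM and collected 3 weeks after the start. All media held 20 ng/ml EGF and 20 ng/ml bFGF, so the controls too received 2 factors that act through receptors upstream of ERK. The condition labels list DMSO for HER2CA day 15 and for gliomaspheres, whereas the treatment text calls astrocytes without 4OH-TAM untreated. The sources used here do not give the promoter that drives CreERT2, the species of the HER2CA construct or whether the controls were transduced. Nothing states that replicates A and B were separate cultures. The p-values then measure the spread between these particular libraries, which may be technical only.

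Receptor tyrosine kinases such as EGFR, HER2 and the FGF receptors signal through RAS, RAF and MEK to the kinase ERK. Active ERK raises transcription of its own inhibitors: dual-specificity phosphatases that remove its phosphates, Sprouty proteins that dampen the route from receptor to RAS, and Spred proteins that bring the RAS inactivator neurofibromin to the membrane. The PEA3 factors are held down by the repressor Capicua, which ERK relieves, and their transcripts, with those of the phosphatases and Sprouty genes, are widely used as readouts of ERK output in glial and glioma cells. No phosphorylated protein was measured here, and transcript levels are reported as such.

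Because the members moved together, the DNA before their start sites is shown for those in which a Capicua or TEAD motif was found. RefSeq promoter windows on GRCm38.p6, from 250 bases before to 50 bases after a start site, were held for 7 of the 10 members in 9 windows. Dusp4, Spry4 and Etv4 had no window here. The sequences below are the 250 bases before the start site, 5′ to 3′ on the gene's strand. Capitals mark matches to motifs on either strand.
Dusp6, chr10:99262981-99263230, plus strand: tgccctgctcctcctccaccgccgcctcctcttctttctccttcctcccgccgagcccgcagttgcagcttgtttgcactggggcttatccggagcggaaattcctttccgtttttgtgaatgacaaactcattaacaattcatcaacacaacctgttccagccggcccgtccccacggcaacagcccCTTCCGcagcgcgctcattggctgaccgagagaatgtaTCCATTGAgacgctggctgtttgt
Spry2, chr14:105896820-105897069, minus strand: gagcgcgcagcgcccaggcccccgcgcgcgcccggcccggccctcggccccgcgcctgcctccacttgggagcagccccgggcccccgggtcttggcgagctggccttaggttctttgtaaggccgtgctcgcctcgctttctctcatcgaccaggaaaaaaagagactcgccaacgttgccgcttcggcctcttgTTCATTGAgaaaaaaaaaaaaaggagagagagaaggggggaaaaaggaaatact
Spry1, chr3:37639697-37639946, plus strand: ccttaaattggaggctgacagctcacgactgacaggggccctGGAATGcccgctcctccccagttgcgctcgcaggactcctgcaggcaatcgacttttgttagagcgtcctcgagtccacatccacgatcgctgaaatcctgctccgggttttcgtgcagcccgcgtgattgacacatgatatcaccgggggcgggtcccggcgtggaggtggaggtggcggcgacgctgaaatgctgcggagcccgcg
Etv1, chr12:38779832-38780081, plus strand: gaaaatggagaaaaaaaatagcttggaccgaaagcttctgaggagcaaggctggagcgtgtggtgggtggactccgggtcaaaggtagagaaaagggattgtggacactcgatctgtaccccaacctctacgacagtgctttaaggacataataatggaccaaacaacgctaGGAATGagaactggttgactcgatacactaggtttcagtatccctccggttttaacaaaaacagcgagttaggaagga
In Dusp6 the capitals are the ETS core CGGAAG, 62 bases before the start site, and TCAATGGA, a form of the Capicua octamer, 24 bases before it, each on the opposite strand. A second TCAATGGA began 1 base after the Dusp6 start site, outside the printed stretch. In Spry2 they are TCAATGAA, another Capicua form, 54 bases before the start site on the opposite strand. In Spry1 and Etv1 they are the TEAD motif GGAATG, 208 and 78 bases before the start site. The Etv1 start site used by RefSeq lies inside the gene bounds of GENCODE.

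These matches were few. TCAATGGA occurred in 0.670% of the 32851 RefSeq windows of the same length and TCAATGAA in 0.749%, each in 1 member. CGGAAG occurred in 16.9% of windows and in 3 members, Dusp6, Spred1 and Spred2. GGAATG occurred in 14.7% of windows and in 2 members. No member window held the Capicua forms TGAATGAA or TGAATGGA (1.30% and 1.21% of windows), the longer ETS motif CCGGAAGT, which contains the ETS core (3.89%), the AP-1 motif TGANTCA (7.81%) or the E-box CACGTG (7.15%). A match is a string of letters and not a measured binding site.

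Library totals ran from 15517708 to 28231426 counts, and member genes held 31 to 11723 counts per library. Gliomaspheres B stood apart: the ribosomal RNA transcript Rn45s took 36.1% of its counts, against 0.984% to 2.92% in the other 7 libraries. Counts of members called in gliomaspheres are therefore also given without gliomaspheres B. Other gliomasphere values include that library unless stated. Levels below are CPM, a library's counts for a gene as a share of its total on a common scale, with library sizes scaled by TMM factors. Changes are log2 fold changes with their standard error (SE) from edgeR's quasi-likelihood test, and adjusted p-values are Benjamini-Hochberg values over all 13607 genes, with 0.05 as the threshold. Of the targeted genes, Yap1 was at 107 and 103 CPM in the pair labelled 4OH-TAM against 101 and 103 CPM without it (log2 fold change 0.043, edgeR adjusted p = 0.569). Wwtr1, which encodes TAZ, was at 123 and 122 CPM against 194 and 210.3 CPM (log2 fold change −0.73, edgeR adjusted p = 1.25e-07). The Yap1 count therefore did not follow the knockout label. The sources used here do not say which exons are floxed, whole-gene counts include exons that Cre leaves, and each direction below rests on the label.

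The 2 ERK phosphatases were lowest in HER2CA day 15 and highest in gliomaspheres. Dusp4 (chromosome 8, 34807297 to 34819894, plus strand, GRCm38), a nuclear phosphatase of ERK and related kinases, was at 24.0 and 22.3 CPM in controls, 6.42 and 6.66 CPM in HER2CA day 15, 26.1 and 28 CPM with 4OH-TAM and 38.2 and 36.8 CPM in gliomaspheres. None of the 4 groups overlapped, and control and 4OH-TAM levels lay close together. Such separation of 2 libraries from 2 was common, and its share over all genes was not counted. In HER2CA day 15 against controls it held for 25 of 26 growth factors and receptors counted. It also held there for 19 of 22 genes between receptor and ERK. Dusp4 fell by 1.82 on the log2 scale between controls and HER2CA day 15 (SE 0.104, edgeR adjusted p = 5.28e-10) and was 2.05 higher with 4OH-TAM than in HER2CA day 15 (SE 0.103, edgeR adjusted p = 1.11e-10). Dusp6 (chromosome 10, 99263231 to 99267489, plus strand), the cytoplasmic phosphatase selective for ERK, was at 29.0 and 27.5 CPM in controls, 14.2 and 15.9 CPM in HER2CA day 15, 92.6 and 105 CPM with 4OH-TAM and 150.2 and 171 CPM in gliomaspheres. Its 4 groups did not overlap, and both 4OH-TAM libraries stood well above both controls. Dusp6 fell by 0.90 on the log2 scale between controls and HER2CA day 15 (SE 0.103, edgeR adjusted p = 1.17e-06). With 4OH-TAM it was 2.71 above HER2CA day 15 (SE 0.0989, edgeR adjusted p = 3.87e-12) and 1.81 above controls (SE 0.0927, edgeR adjusted p = 9.50e-10), whereas Dusp4 was only 0.22 above controls (SE 0.0896, edgeR adjusted p = 0.0421). That Dusp4 call was lost with DESeq2 (adjusted p = 0.091), with no scaling factors (edgeR adjusted p = 0.621) and on leaving out any 1 library of the 2 groups (edgeR adjusted p = 0.0678 without 4OH-TAM A, 0.251 without 4OH-TAM B, 0.068 without control A and 0.216 without control B).

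Bulk RNA cannot tell fewer cells that express a gene from less RNA per cell, and this holds for each result here. The plot of levels by library shows the same order of groups for most members.

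**Figure D1:**
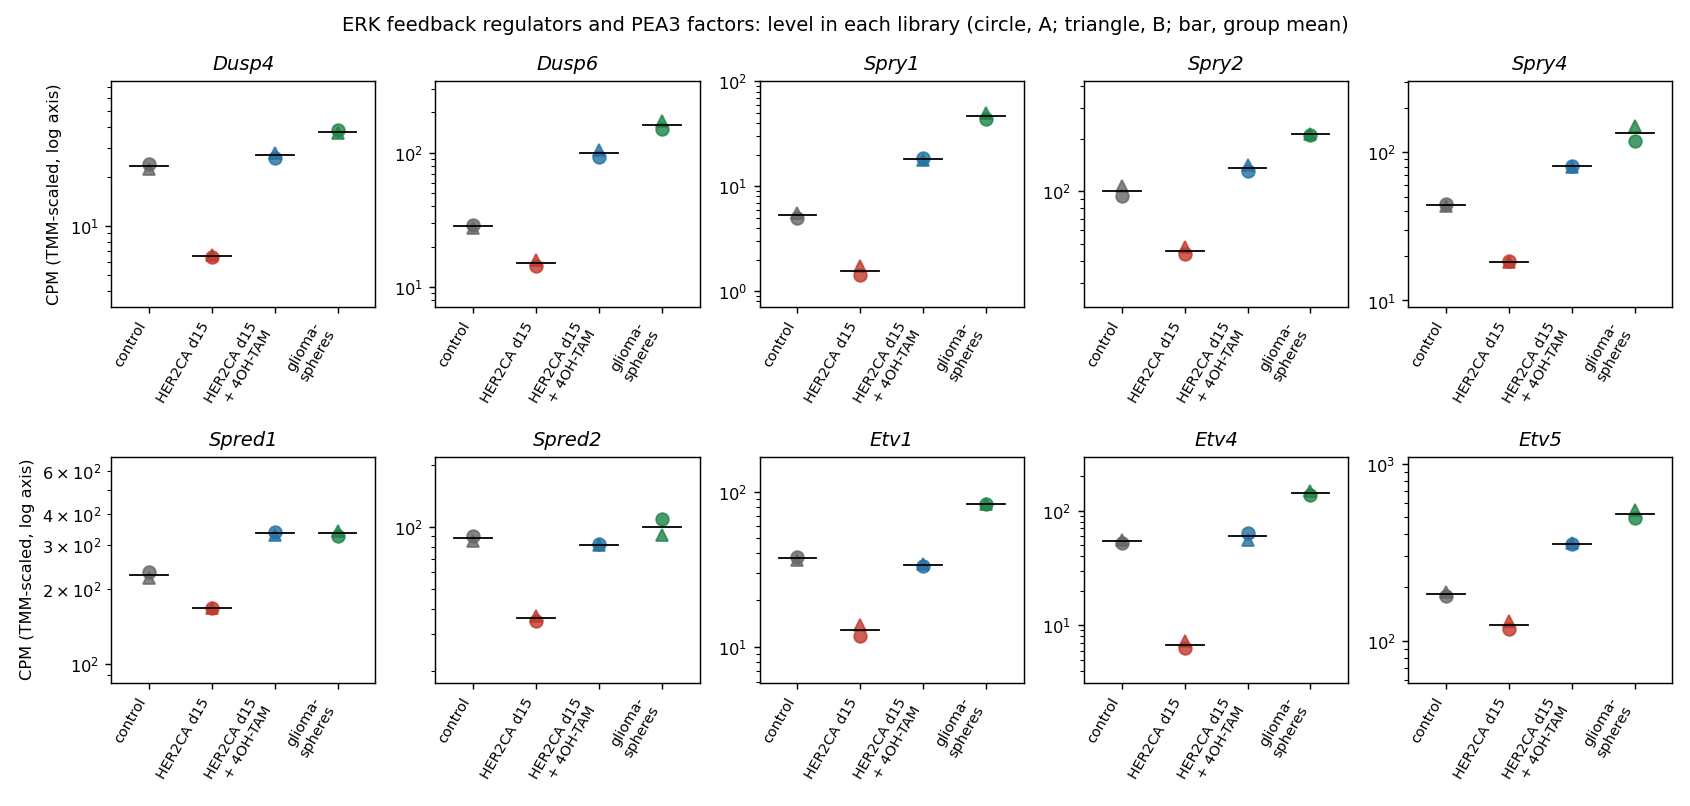
Level of each of the 10 members in each library, in CPM on TMM-scaled library sizes (log axis, own range per gene), with circles for replicate A, triangles for replicate B and bars for group means. HER2CA day 15 (red) lies lowest in each panel, from 1.42 CPM for Spry1 to 168 CPM for Spred1, and gliomaspheres (green) lie highest in all but Spred1, where they overlap the 4OH-TAM libraries (blue).

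All 3 Sprouty genes fell in HER2CA day 15 and were above controls both with 4OH-TAM and in gliomaspheres, Spry1 by most. Spry1 (chromosome 3, 37639947 to 37644598, plus strand) was at 5.03 and 5.56 CPM in controls, 1.42 and 1.72 CPM in HER2CA day 15, 18.6 and 17.9 CPM with 4OH-TAM and 44.2 and 50.4 CPM in gliomaspheres. No group overlapped another. It fell by 1.73 on the log2 scale in HER2CA day 15 (SE 0.176, edgeR adjusted p = 3.22e-07). Against HER2CA day 15 it was 11.4-fold higher with 4OH-TAM (log2 fold change 3.51, SE 0.150, edgeR adjusted p = 2.01e-11) and 29.4-fold higher in gliomaspheres (4.88, SE 0.144, edgeR adjusted p = 2.15e-13). In GENCODE M21, 24.4% of the exonic bases of Spry1 are shared with Gm42922 on the opposite strand. The sources used here do not give the strand setting of the counting, and reads of Gm42922 may be included.

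Spry2 (chromosome 14, 105891947 to 105896819, minus strand), the most abundant Sprouty transcript per kilobase in each group, was at 94.7 and 107 CPM in controls, 43.8 and 48.1 CPM in HER2CA day 15, 131 and 141 CPM with 4OH-TAM and 209 and 214 CPM in gliomaspheres. It fell by 1.13 on the log2 scale in HER2CA day 15 (SE 0.0814, edgeR adjusted p = 6.67e-09) and was 1.57 higher with 4OH-TAM than without (SE 0.0814, edgeR adjusted p = 1.55e-10). Spry4 (chromosome 18, 38586247 to 38601415, minus strand), a Sprouty protein known to bind RAF, was at 44.7 and 43.4 CPM in controls, 18.3 and 18.1 CPM in HER2CA day 15, 80.8 and 79.9 CPM with 4OH-TAM and 119 and 151 CPM in gliomaspheres. Its groups did not overlap, although the 2 gliomasphere libraries differed more from each other than the pairs of any other group did. Spry4 fell by 1.27 on the log2 scale in HER2CA day 15 (SE 0.105, edgeR adjusted p = 3.13e-08) and was 2.14 higher with 4OH-TAM than in HER2CA day 15 (SE 0.103, edgeR adjusted p = 7.03e-11). Against controls, Spry2 was 0.43 and Spry4 0.87 higher with 4OH-TAM (SE 0.0779 and 0.0957, edgeR adjusted p = 0.00024 and 2.36e-06).

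Both Spred genes fell in HER2CA day 15, Spred1 by the least of the 10 members. With 4OH-TAM, Spred1 stood above controls while the Spred2 level lay just below them, a contrast that was not tested. Spred1 (chromosome 2, 117121374 to 117182279, plus strand), whose human counterpart is mutated in Legius syndrome, was at 234 and 221 CPM in controls, 168 CPM in both HER2CA day 15 libraries, 341 and 329 CPM with 4OH-TAM, and 329 and 341 CPM in gliomaspheres. The 4OH-TAM and gliomasphere libraries overlapped, and the other groups did not. Spred1 fell by 0.44 on the log2 scale in HER2CA day 15 (SE 0.0693, edgeR adjusted p = 3.83e-05), a call lost with no scaling factors (edgeR adjusted p = 0.170). With 4OH-TAM it was 0.99 above HER2CA day 15 (SE 0.0695, edgeR adjusted p = 4.32e-09) and 0.56 above controls (SE 0.0689, edgeR adjusted p = 7.19e-06). Spred2 (chromosome 11, 19924375 to 20024026, plus strand) was at 90.4 and 85.7 CPM in controls, 35.0 and 36.8 CPM in HER2CA day 15, 82.8 and 81.3 CPM with 4OH-TAM and 109.6 and 91.1 CPM in gliomaspheres. It fell by 1.29 on the log2 scale in HER2CA day 15 (SE 0.088, edgeR adjusted p = 3.63e-09) and was 1.19 above that group with 4OH-TAM (SE 0.088, edgeR adjusted p = 8.00e-09). Against controls, the Spred2 level with 4OH-TAM differed by −0.10 (SE 0.0839, edgeR adjusted p = 0.310).

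Of the PEA3 factors, Etv4 fell furthest in HER2CA day 15, and Etv5 changed least. Etv1 (chromosome 12, 38779380 to 38870484, plus strand) was at 37.9 and 36.5 CPM in controls, 11.8 and 13.8 CPM in HER2CA day 15, 33.0 and 34.0 CPM with 4OH-TAM and 82.8 and 83.7 CPM in gliomaspheres. Etv4 (chromosome 11, 101769742 to 101785371, minus strand), the factor for which the PEA3 group is named, was at 52.6 and 55.1 CPM in controls, 6.32 and 7.24 CPM in HER2CA day 15, 64.0 and 56.0 CPM with 4OH-TAM and 137 and 148 CPM in gliomaspheres. Etv5 (chromosome 16, 22381309 to 22439719, minus strand), also called ERM, was at 179.5 and 189 CPM in controls, 116 and 129 CPM in HER2CA day 15, 350.2 and 359 CPM with 4OH-TAM and 491 and 548 CPM in gliomaspheres. For each of the 3 factors the groups did not overlap, which was common among other genes too. Etv1 and Etv4 with 4OH-TAM lay close to controls, without passing the threshold, and Etv5 lay far above them.

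Etv4 was 7.89-fold lower in HER2CA day 15 than in controls (log2 fold change −2.98, SE 0.105, edgeR adjusted p = 3.75e-12). Etv1 fell by 1.53 (SE 0.0913, edgeR adjusted p = 8.21e-10) and Etv5 by 0.58 on the same scale (SE 0.0804, edgeR adjusted p = 8.89e-06), the latter lost with no scaling factors (edgeR adjusted p = 0.0661). With 4OH-TAM, Etv4 was 3.13 above HER2CA day 15 (SE 0.105, edgeR adjusted p = 1.77e-12), Etv5 1.53 (SE 0.0812, edgeR adjusted p = 1.98e-10) and Etv1 1.38 (SE 0.0916, edgeR adjusted p = 2.43e-09). Against controls, Etv5 was 0.94 higher with 4OH-TAM (SE 0.0798, edgeR adjusted p = 1.56e-07). The other two missed the threshold there, with differences of 0.15 for Etv4 (SE 0.0849, edgeR adjusted p = 0.130) and −0.15 for Etv1 (SE 0.0833, edgeR adjusted p = 0.128). With upper-quartile factors Etv4 passed it (0.20, edgeR adjusted p = 0.0479).

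Counted over the 10 members, HER2CA day 15 against controls gave 10 lower and 0 higher, where 38.4% of all genes tested were lower and 37.3% higher. The members' median change was −1.28, against −0.017 over all genes. Falls ranged from 0.44 in Spred1 to 2.98 in Etv4 on the log2 scale. The count was 8 with no scaling factors and 8 when tested against a 1.5-fold change, Spred1 and Etv5 being lost in both. Because controls were neither transformed nor given doxycycline, the parts of HER2CA, doxycycline, rtTA and CreERT2 cannot be told apart in any comparison with controls.

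The pair labelled 4OH-TAM against HER2CA day 15, the comparison meant to show the effect of deleting Yap and Taz, gave 10 members higher and 0 lower. Over all genes, 40.8% were higher and 39.7% lower. The median change was 1.81 in the members and 0.010 over all genes. The smallest rise was that of Spred1 (0.99) and the largest that of Spry1 (3.51). No group received 4OH-TAM without CreERT2 or without the floxed alleles. The parts of 4OH-TAM itself, Cre activity and loss of Yap and Taz therefore cannot be told apart. This comparison and the one before it share the 2 HER2CA day 15 libraries, so a low level in those libraries enters both with opposite sign. The 6 comparisons among 4 groups all share libraries in this way, and they are set side by side rather than taken as separate evidence.

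Against controls, the 4OH-TAM libraries had 7 members higher and 0 lower, with 31.0% of all genes higher and 28.2% lower. The median was 0.50 in the members and 0.0018 over all genes. Dusp6 and Spry1 rose most, by 1.81 and 1.78 (SE 0.0927 and 0.123, edgeR adjusted p = 9.50e-10 and 1.81e-08), and the 3 members not past the threshold were Spred2, Etv1 and Etv4. The count of 7 became 4 in 2 alternatives, with no scaling factors and when tested against a 1.5-fold change.

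**Figure D2:**
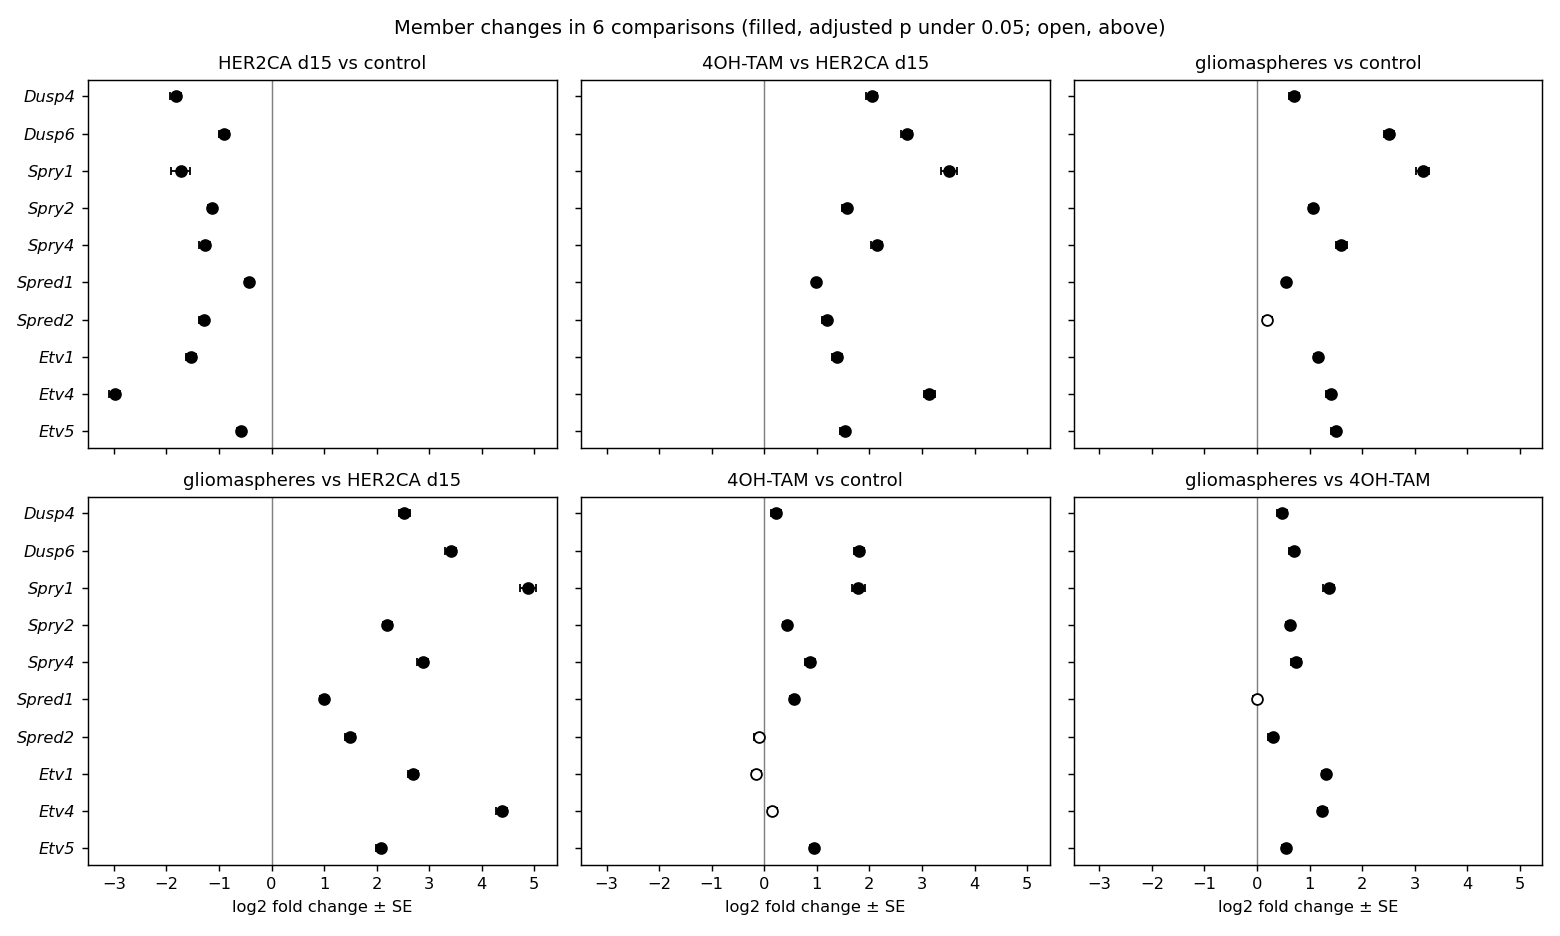
Log2 fold change of each member in the 6 comparisons, with bars for the standard error, filled circles for an edgeR adjusted p under 0.05 and open circles above it. The 10 members lie left of 0 in HER2CA day 15 against controls and right of 0 in both comparisons with HER2CA day 15 as the reference; in gliomaspheres, Spred2 against controls and against 4OH-TAM changes sign with no scaling factors, and Spred1 against 4OH-TAM lies at 0 and takes either sign by setting.

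Gliomaspheres held more of these transcripts than control astrocytes. Against controls 9 members were higher and 0 lower, with 32.5% of all genes higher and 32.0% lower, and the median was 1.28 in the members and −0.0054 over all genes. Spry1 rose 8.88-fold (log2 fold change 3.15, SE 0.120, edgeR adjusted p = 1.48e-11) and Dusp6 5.67-fold (2.5, SE 0.0942, edgeR adjusted p = 1.23e-11). Spry4 rose by 1.61, Etv5 by 1.5, Etv4 by 1.40, Etv1 by 1.16, Spry2 by 1.07, Dusp4 by 0.70 and Spred1 by 0.56, with edgeR adjusted p from 5.59e-10 for Etv5 to 8.51e-06 for Dusp4. With no scaling factors Dusp4 stood at 0.38 (edgeR adjusted p = 0.337) and Spred1 at 0.22 (edgeR adjusted p = 0.583), and 7 members were higher. The same 2 were lost when tested against a 1.5-fold change. Spred2 differed by 0.20 (SE 0.085, edgeR adjusted p = 0.0536), and with no scaling factors by −0.11. Without gliomaspheres B the Spred2 difference was 0.31 (edgeR adjusted p = 0.00169) and 10 members were higher.

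Against HER2CA day 15, gliomaspheres had 10 members higher and 0 lower, where 38.4% of all genes were higher and 40.4% lower, and the count was 10 without gliomaspheres B too. The median was 2.61 in the members and −0.032 over all genes. Spry1 differed most, by 4.88 on the log2 scale. Etv4 was 20.8-fold higher (log2 fold change 4.38, SE 0.105, edgeR adjusted p = 3.41e-14), Dusp6 10.6-fold (3.41, SE 0.100, edgeR adjusted p = 2.11e-13), and Spred1 1.99-fold (0.99, SE 0.0699, edgeR adjusted p = 3.71e-09). The log2 fold changes of the remaining members were Spry4 at 2.88, Etv1 at 2.69, Dusp4 at 2.52, Spry2 at 2.20, Etv5 at 2.08 and Spred2 at 1.49. Growth in suspension and the longer time went with the gliomasphere label, and their parts cannot be told apart.

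Gliomaspheres and the 4OH-TAM libraries, both above HER2CA day 15, differed from each other in 9 members, each higher in gliomaspheres, Spred2 turning to −0.073 with no scaling factors. Over all genes 31.3% were higher and 29.7% lower, and the median was 0.67 in the members and 0.017 over all genes. Differences were largest for Spry1 (1.37, SE 0.105, edgeR adjusted p = 3.31e-08), Etv1 (1.31, SE 0.0828, edgeR adjusted p = 3.92e-09) and Etv4 (1.24, SE 0.0843, edgeR adjusted p = 8.75e-09). They were 0.74 for Spry4, 0.70 for Dusp6, 0.64 for Spry2, 0.55 for Etv5, 0.48 for Dusp4 and 0.30 for Spred2. Without gliomaspheres A the Spred2 call was lost (edgeR adjusted p = 0.144), leaving 8, and without gliomaspheres B the count was 9. The count was 3 with no scaling factors and 3 when tested against a 1.5-fold change. The Spred1 difference was −0.00047 (SE 0.0689, edgeR adjusted p = 0.995), and its value ran from −0.40 with no scaling factors to 0.027 without gliomaspheres A.

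Ordered by mean level, HER2CA day 15 was the lowest group for all 10 members under TMM scaling. Controls, 4OH-TAM and gliomaspheres followed in that order for Dusp4, Dusp6, Spry1, Spry2, Spry4, Etv4 and Etv5. Neighbours in that order differed past the threshold in each of these genes except Etv4, where controls and 4OH-TAM did not. Spred1 kept the order, with 4OH-TAM and gliomaspheres not differing. For Spred2 and Etv1 the 4OH-TAM mean lay just below the control mean, within the threshold, and gliomaspheres lay above both, past the threshold over controls for Etv1 and not for Spred2.

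Levels of different genes were compared per kilobase of exon. In controls Spry2 (48.3 ± 4.15 CPM per kb, SD, n = 2) and Etv5 (44.9 ± 1.58) stood highest, and Spry1 (1.82 ± 0.129) lowest. Etv5 headed the other 3 groups, at 29.9 ± 2.28 in HER2CA day 15, 86.4 ± 1.47 with 4OH-TAM and 127 ± 9.74 CPM per kb in gliomaspheres. Spry1 was at 0.541 ± 0.074 CPM per kb in HER2CA day 15. Etv1 had the lowest level per kilobase with 4OH-TAM (2.52 ± 0.0549) and in gliomaspheres (6.26 ± 0.0475), though its exons span 13296 bases in all and 6576 in its longest transcript, which would give 12.7 CPM per kb in gliomaspheres.

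The mixture within each family shifted between groups. Etv4 made up 26.7% ± 0.0143 (SD, n = 2) of the summed PEA3 level per kilobase in controls, 6.60% ± 0.115 in HER2CA day 15, 17.8% ± 1.63 with 4OH-TAM and 25.7% ± 0.374 in gliomaspheres. Etv5 took 69.0%, 90.5%, 79.8% and 70.8% of the same sums. Among the Sprouty genes, Spry1 took 3.07% ± 0.00601 in controls, 2.05% ± 0.166 in HER2CA day 15, 7.11% ± 0.443 with 4OH-TAM and 11.1% ± 0.435 in gliomaspheres, and Spry2 went from 81.3% in controls to 69.5% in gliomaspheres. Dusp6 took 51.6% of the summed level of the 2 phosphatases in controls, 66.8% in HER2CA day 15, 76.1% with 4OH-TAM and 78.9% in gliomaspheres. In each of these series the 2 libraries of a group lay closer together than the groups named, except Dusp6 with 4OH-TAM and in gliomaspheres, which came near each other (75.6% and 76.6% against 77.5% and 80.3%). With 2 libraries a group these shares are descriptions without a test.

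**Figure D3:**
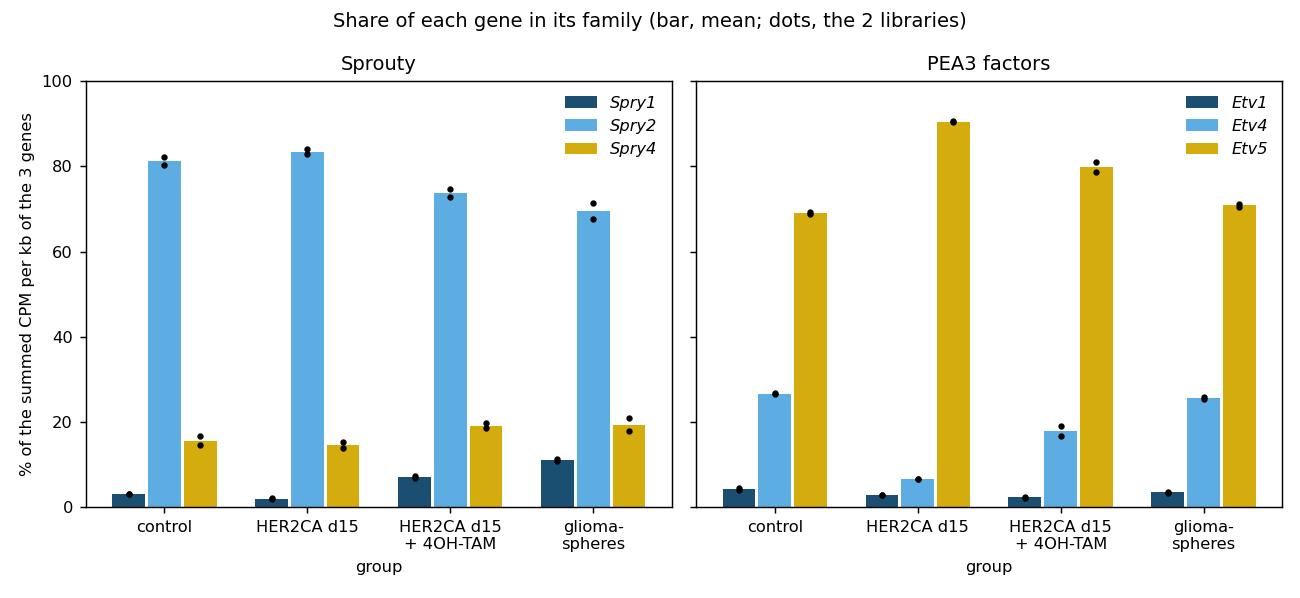
Share of each Sprouty gene (left) and each PEA3 factor (right) in the summed CPM per kb of its family, in %, with bars for group means and dots for the 2 libraries. Etv4 drops from 26.7% in controls to 6.60% in HER2CA day 15, and Spry1 reaches 11.1% in gliomaspheres.

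The summed level of each family showed the same ordering of groups. The PEA3 sum was 65.0 ± 2.08 CPM per kb in controls, 33.1 ± 2.60 in HER2CA day 15, 108 ± 0.299 with 4OH-TAM and 179 ± 12.3 in gliomaspheres (SD, n = 2). The Sprouty sum was 59.4 ± 4.09, 26.4 ± 1.48, 88.4 ± 3.22 and 146 ± 7.77 CPM per kb in the same order of groups, and the phosphatase sum 17.5 ± 0.764, 7.19 ± 0.445, 41.4 ± 3.29 and 65.0 ± 4.42. The Spred sum ran more narrowly, from 32.6 ± 0.239 in HER2CA day 15 to 71.1 ± 1.53 in gliomaspheres.

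Upstream of the members, ligands and receptors changed in both directions. Of 31 listed growth factors and receptors, 26 were counted. Counts for this list, the lists below and the cell type markers stand against the shares of all genes. Those were 37.3% higher and 38.4% lower in HER2CA day 15 against controls, and 40.8% and 39.7% in 4OH-TAM against HER2CA day 15. They were 32.5% and 32.0% in gliomaspheres against controls. In HER2CA day 15 against controls 7 of the 26 were higher and 15 lower (median −0.78). Nrg1, a ligand of ERBB3 and ERBB4, rose by 2.86 (SE 0.132, edgeR adjusted p = 5.24e-11) and Hbegf, an EGFR ligand, by 1.28 (SE 0.104, edgeR adjusted p = 2.52e-08), while Fgf1 fell by 5.38 (SE 0.155, edgeR adjusted p = 8.37e-13) and Fgfr3 by 2.51 (SE 0.0849, edgeR adjusted p = 2.64e-12). Egfr, the receptor for the EGF in the medium, was at 112 and 120 CPM in controls, 52.3 and 59.2 CPM in HER2CA day 15, 132 and 135 CPM with 4OH-TAM and 299 and 337 CPM in gliomaspheres. It thus stood lowest in HER2CA day 15 and highest in gliomaspheres, as the members did, falling by 1.06 in the first comparison (SE 0.0835, edgeR adjusted p = 1.96e-08) and being 1.26 higher with 4OH-TAM than in HER2CA day 15 (SE 0.0835, edgeR adjusted p = 2.41e-09). The part of Egfr in the members' levels was not tested. Mouse Erbb2 was at 30.5 ± 0.598 CPM in HER2CA day 15, 32.0 ± 1.14 CPM in controls, 28.2 ± 0.646 CPM with 4OH-TAM and 22.7 ± 1.87 CPM in gliomaspheres (SD, n = 2). In gliomaspheres it was 0.51 below controls on the log2 scale (SE 0.0927, edgeR adjusted p = 0.000193). The species of the HER2CA construct is not given, so this count does not show whether the construct was expressed.

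With 4OH-TAM against HER2CA day 15, 17 of the 26 were higher and 4 lower (median 1.03). Fgf1 was 6.80 higher (SE 0.14, edgeR adjusted p = 2.00e-13), Pdgfra 5.31 (SE 0.266, edgeR adjusted p = 1.03e-10) and Fgfr1 1.43 (SE 0.094, edgeR adjusted p = 2.17e-09), while Nrg1 fell by 2.24 (SE 0.124, edgeR adjusted p = 3.26e-10) and Met, the receptor for hepatocyte growth factor, by 1.75 (SE 0.0726, edgeR adjusted p = 1.53e-11). In gliomaspheres against controls 8 were higher and 10 lower (median −0.36), Pdgfra rising by 4.73 (SE 0.244, edgeR adjusted p = 3.46e-10) and Met falling by 1.89 (SE 0.0813, edgeR adjusted p = 4.70e-11).

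The kinases and adaptors between receptor and ERK did not share the members' pattern of counts. Of 22 listed and counted, 10 were higher and 6 lower in HER2CA day 15 against controls (median 0.089), 7 higher and 13 lower with 4OH-TAM against HER2CA day 15 (median −0.28), and 3 higher and 11 lower in gliomaspheres against controls (median −0.14). Braf was 1.49 higher in HER2CA day 15 than in controls (SE 0.0924, edgeR adjusted p = 1.31e-09) and fell by 1.67 with 4OH-TAM (SE 0.0931, edgeR adjusted p = 3.31e-10). Rps6ka1, which encodes the ERK substrate kinase RSK1, moved in the members' direction, falling by 2.98 and then standing 2.66 higher (SE 0.122 in both, edgeR adjusted p = 1.5e-11 and 3.99e-11). Mapk3, which encodes an ERK kinase, fell by 0.90 in HER2CA day 15 (SE 0.0944, edgeR adjusted p = 4.83e-07).

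**Figure D4:**
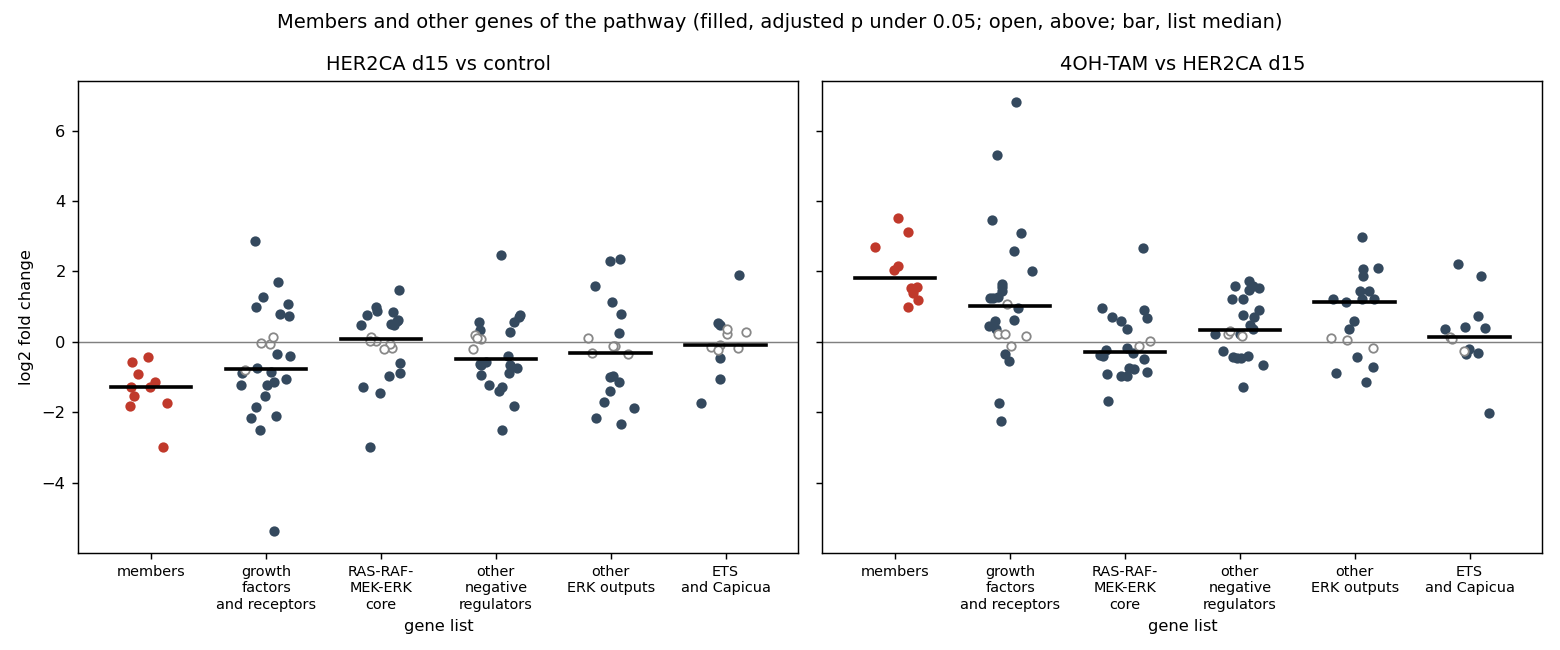
Log2 fold change of the members (red) and of the 5 other lists of the pathway (dark), one point per counted gene, in HER2CA day 15 against controls (left) and in the pair labelled 4OH-TAM against HER2CA day 15 (right), with bars for list medians and open points above an edgeR adjusted p of 0.05. The members' medians are −1.28 and 1.81, while the other lists hold genes on both sides of 0 in both panels.

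Other negative regulators of the pathway were mixed. Of 27 listed, 24 were counted, and 7 were higher and 13 lower in HER2CA day 15 against controls (median −0.48), with 14 higher and 7 lower with 4OH-TAM against HER2CA day 15 (median 0.33). The phosphatase gene Dusp1, which acts on several MAP kinases, fell by 2.5 (SE 0.164, edgeR adjusted p = 2.36e-09) and was 1.6 higher with 4OH-TAM (SE 0.172, edgeR adjusted p = 5.34e-07). Rasa3, a RAS GTPase-activating protein, fell by 1.28 (SE 0.0704, edgeR adjusted p = 3.37e-10) and was 1.54 higher (SE 0.0704, edgeR adjusted p = 3.86e-11). Rasal2 went the other way, at 178 ± 13.9 CPM in controls, 303 ± 2.87 in HER2CA day 15 and 191 ± 11.5 with 4OH-TAM (SD, n = 2). It was at 363 ± 19.6 CPM in gliomaspheres. In gliomaspheres 16 were higher and 6 lower than in controls (median 0.45), including Spred3, the remaining Spred gene, at 1.43 (SE 0.0991, edgeR adjusted p = 9.54e-09). Spred3 did not fall in HER2CA day 15, at 31.4 ± 3.70 CPM against 29.6 ± 3.25 CPM in controls (SD, n = 2). Spry3 was not analysed here.

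Other ERK outputs included genes that moved against the members. Of 19 listed and counted, 6 were higher and 8 lower in HER2CA day 15 against controls (median −0.33), 12 higher and 4 lower with 4OH-TAM against HER2CA day 15 (median 1.13), and 11 higher and 7 lower in gliomaspheres against controls (median 0.66). The immediate early gene Fos fell by 2.35 in HER2CA day 15 (SE 0.106, edgeR adjusted p = 4.27e-11) and Egr3 by 1.89 (SE 0.114, edgeR adjusted p = 8.75e-10), whereas Myc rose by 2.34 (SE 0.0974, edgeR adjusted p = 1.74e-11) and the matrix gene Tnc by 2.31 (SE 0.0837, edgeR adjusted p = 5.04e-12). Ccnd1, which encodes cyclin D1, was 2.98 higher with 4OH-TAM than in HER2CA day 15 (SE 0.0793, edgeR adjusted p = 2.91e-13), and Egr1 1.86 higher (SE 0.0991, edgeR adjusted p = 1.98e-10), while Tnc fell by 0.89 (SE 0.0803, edgeR adjusted p = 7.49e-08) and Myc by 0.71 (SE 0.0889, edgeR adjusted p = 3.02e-06). In gliomaspheres Shc4, an adaptor of the SHC family, was 2.42 above controls (SE 0.075, edgeR adjusted p = 2.5e-12) and Fos fell by 0.91 (SE 0.101, edgeR adjusted p = 1.59e-06).

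Capicua, the repressor of PEA3 genes, was itself lower in HER2CA day 15. Cic fell by 1.05 against controls (SE 0.0698, edgeR adjusted p = 2.70e-09) and was 0.37 higher with 4OH-TAM than in HER2CA day 15 (SE 0.0697, edgeR adjusted p = 0.000168). Of its partner genes, Atxn1l rose by 0.52 in HER2CA day 15 (SE 0.0767, edgeR adjusted p = 1.66e-05), and Atxn1 differed by −0.23 (SE 0.134, edgeR adjusted p = 0.135). Over the 13 of 14 listed ETS and Capicua genes that were counted, 3 were higher and 3 lower in HER2CA day 15 (median −0.084), 6 higher and 4 lower with 4OH-TAM against HER2CA day 15 (median 0.14), and 6 higher and 4 lower in gliomaspheres against controls (median 0.18). Ets2 rose by 1.89 in HER2CA day 15 (SE 0.088, edgeR adjusted p = 5.79e-11) and Elk3 fell by 1.74 (SE 0.103, edgeR adjusted p = 7.73e-10), and with 4OH-TAM Ets2 fell by 2.02 (SE 0.0885, edgeR adjusted p = 2.57e-11) and Elk3 was 2.21 higher (SE 0.103, edgeR adjusted p = 4.55e-11).

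In the other 3 comparisons the lists split as follows. For gliomaspheres against HER2CA day 15, 10 growth factors and receptors were higher and 9 lower, 5 core genes higher and 10 lower, 16 negative regulators higher and 2 lower, 10 outputs higher and 6 lower, and 6 ETS and Capicua genes higher and 5 lower. For 4OH-TAM against controls the counts were 16 and 6, 4 and 9, 11 and 4, 12 and 5, and 4 and 2 in the same order of lists. For gliomaspheres against 4OH-TAM they were 4 and 17, 4 and 6, 15 and 4, 5 and 6, and 4 and 3. These counts are those under TMM scaling. Over all genes, 38.4% were higher and 40.4% lower in gliomaspheres against HER2CA day 15. The shares were 31.0% and 28.2% in 4OH-TAM against controls, and 31.3% and 29.7% in gliomaspheres against 4OH-TAM. The growth factors and receptors in gliomaspheres against HER2CA day 15 split near the shares of all genes. No list was tested as a set.

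By summed level, astrocyte and oligodendrocyte lineage markers stood lowest in HER2CA day 15, as the members did. The astrocyte sum was higher with 4OH-TAM than in gliomaspheres, unlike most members, though by single markers 4 were higher and 2 lower in gliomaspheres. Microglial, neuronal, and fibroblast and mural sums were lowest in gliomaspheres, but single markers did not all go that way. In gliomaspheres against HER2CA day 15, 3 microglial markers were higher and 2 lower, and 3 neuronal markers were higher and 2 lower. Of the fibroblast and mural markers, 1 was higher and 4 were lower. Of 10 listed astrocyte markers 9 were counted, with none at 0, and their summed level was 5483 to 6438 CPM in controls, 2535 to 2600 in HER2CA day 15, 11229 to 11684 with 4OH-TAM and 10608 to 11100 in gliomaspheres. The calcium-binding protein gene S100b was at only 0.275 and 0.207 CPM in HER2CA day 15. Against controls 8 astrocyte markers were lower in HER2CA day 15, and 9 were higher with 4OH-TAM than in HER2CA day 15. Of 10 oligodendrocyte lineage markers 9 were counted, summing to 468 to 506, 110.0 to 119, 908 to 952 and 2995 to 3306 CPM in the same order of groups. Of these, 8 were lower in HER2CA day 15 than in controls and 9 higher with 4OH-TAM than in HER2CA day 15. In gliomaspheres 7 were higher and 2 lower than in controls, and 3 higher and 3 lower than with 4OH-TAM. Most of the gliomasphere sum was Olig1, at 2362 and 2156 CPM. The part of the astrocyte and oligodendrocyte lineage markers in the members' changes was not tested.

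Microglial markers (9 of 10 counted) summed to 130 to 137 CPM in controls, 152 to 165 in HER2CA day 15, 261 to 281 with 4OH-TAM and 46.1 to 49.2 in gliomaspheres, where the members were highest. Most of the HER2CA day 15 sum was Cd68, at 124 and 135 CPM against 87.5 and 89.4 CPM in controls and 10.7 and 12.5 CPM in gliomaspheres. By single markers, 1 was higher and 6 were lower in HER2CA day 15 than in controls. Fibroblast and mural markers (7 of 8) summed to 342 to 382, 366 to 369, 303 to 371 and 63.0 to 69.9 CPM in the same order of groups. Here too the sum hid single markers. Against controls, 1 was higher and 4 were lower in HER2CA day 15, and 6 were higher and 1 lower with 4OH-TAM. Acta2 was at 64.8 and 52.3 CPM with 4OH-TAM against 210 and 177 CPM in controls. Neuronal markers (5 of 8) summed to 69.5 to 69.7, 34.8 to 38.8, 64.7 to 69.2 and 23.0 to 25.1 CPM in that order of groups, with Dcx at 0 counts in HER2CA day 15. Stmn2 made up most of the HER2CA day 15 sum, at 32.2 and 35.4 CPM against 4.44 and 5.06 CPM in gliomaspheres. The 1 endothelial marker counted of 5, Kdr, reached at most 2.75 CPM, in the pair labelled 4OH-TAM.

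Across the 8 libraries the members' profiles ran close together, as a description of 4 groups that share their replicates. Pearson's r of log2 CPM between pairs of members ran from 0.771 to 0.997, with a median of 0.948 over 45 pairs. The mean of the standardised member profiles was −1.44 and −1.34 in HER2CA day 15, −0.12 and −0.13 in controls, 0.44 and 0.46 with 4OH-TAM and 1.04 and 1.09 in gliomaspheres. Spry2 followed this mean most closely (r = 0.997) and Spred2 least (r = 0.917). Each member is itself part of the mean, which raises its r. Such likeness was common: 770 of 13597 other genes, none of them part of the mean, had r above 0.95 with it.

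The 5 other genes closest to the mean profile were Abcd2 (r = 0.999), Adgrb3 (0.999), Mamdc2 (0.998), Tnik (0.998) and A630072M18Rik (0.998), each over 8 libraries. Mamdc2 was at 82.7 and 92.8 CPM in controls, 22.9 and 23.2 CPM in HER2CA day 15, 178 and 175 CPM with 4OH-TAM and 309 and 311 CPM in gliomaspheres. Dusp6 was closest to Unc79 (r = 0.9997), Robo2 (0.999) and Gria2 (0.998), Spry4 to Nav1 (0.999), Cit (0.998) and Dock1 (0.997), and Etv4 to Gm16325 (0.999), Chrna4 (0.998) and Slc25a53 (0.998). Gria2, an AMPA receptor subunit gene, was at 16.0 and 15.9 CPM in controls, 6.60 and 8.00 CPM in HER2CA day 15, 54.8 and 66.9 CPM with 4OH-TAM and 103 and 96.6 CPM in gliomaspheres.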

How the data were processed

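Stranded polyA libraries were sequenced, per the labels' protocols. The authors deposited 1 table of raw read counts per gene symbol. The submitters' processing notes name FastQC, featureCounts, STAR 2.5.3a and the builds GRCm38 and mm10, without their role or order; the sources used here do not give the annotation, strand setting or filters. All 13607 symbols held 1 CPM or more in 2 or more libraries, so lower genes were not analysed here. Columns were matched to samples by title, and groups came from the labels.

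EdgeR 4.0.16 in R 4.3.3 fitted 1 mean per group to the counts of all 8 libraries with TMM factors, leaving 4 residual degrees of freedom, at a common biological coefficient of variation of 0.0685. The 6 comparisons were tested with glmQLFTest, and p-values were adjusted by Benjamini-Hochberg across the table and called under 0.05. An SE is the absolute log2 fold change over the square root of F. The code was tested on simulated data. Alternatives were other scaling factors, other filters, the Wald test of DESeq2 1.42.0, a 1.5-fold null, the 2 groups alone, a replicate block, Rn45s and Lars2 removed, longest-transcript lengths and each library left out. Replicate pairs differed by a chi-square per degree of freedom of 4.05 (4OH-TAM) to 723 (gliomaspheres; 21.5 without Rn45s and Lars2), so each library counted as 1 replicate.

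Positions and lengths come from GENCODE M21 on GRCm38, and promoters from RefSeq on GRCm38.p6. The members, lists and tests were chosen with earlier results of these data known. The rule for names took all members, up to 3 genes of each list with the largest rise and fall past the threshold at 5 CPM or more, Cic, Atxn1, Atxn1l, Egfr, Erbb2, Fgfr1 and Mapk3, and the closest profiles. Not every gene it takes is named, and some results are not reported here. The motifs TGAATGGA, TCAATGAA, TCAATGGA and CGGAAG were added after the first search was seen. S100b, Kdr, Dcx, Stmn2, Olig1, Cd68, Acta2, Rn45s and Lars2 were named after their values were seen.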

Additional observations from a re-analysis of the deposited data

How the results depend on the processing

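All 10 members were called in 4OH-TAM against HER2CA day 15 and in gliomaspheres against HER2CA day 15 under every alternative run. The letters A and B did not pair the libraries (correlations of deviations across genes from −0.0314 to 0.0554 between groups), and with a replicate block the members called were 10, 10, 9, 10, 7 and 9 in the 6 comparisons, as without it, and 10948 genes were called in 4OH-TAM against HER2CA day 15 against 10947. With no scaling factors, all genes called numbered 5890 in HER2CA day 15 against controls (2304 higher, 3586 lower), 6375 in 4OH-TAM against HER2CA day 15 (4338 and 2037), 4646 in gliomaspheres against controls (1386 and 3260), 2654 in 4OH-TAM against controls (2115 and 539) and 4199 in gliomaspheres against 4OH-TAM (749 and 3450); members higher in the last 2 were 4 and 3. The median over all genes then stood at −0.33 in gliomaspheres against controls, −0.30 against HER2CA day 15 and −0.38 against 4OH-TAM, and at 0.13 in 4OH-TAM against HER2CA day 15. Tested against a 1.5-fold change, genes called were 5456, 6071 (3732 higher, 2339 lower) and 3393 in the first 3 comparisons, 6237 in gliomaspheres against HER2CA day 15, 2417 (1804 and 613) in 4OH-TAM against controls and 3025 in gliomaspheres against 4OH-TAM, with 4 and 3 members higher in the last 2. Fewer calls follow there from the stricter hypothesis. For the scaling the cause was not tested. The TMM factor of gliomaspheres B, where Rn45s took 36.1% of counts, was 0.637, against 1.03 to 1.12 in the other libraries. With upper-quartile factors 4OH-TAM against HER2CA day 15 split into 6569 higher and 4109 lower, against 5547 and 5400 with TMM, and the median over all genes moved from 0.010 to 0.22 (in HER2CA day 15 against controls, from −0.017 to −0.17). Reversed values were Spred1 in gliomaspheres against 4OH-TAM, at 0.00184 with relative log expression factors, 0.00145 with DESeq2 and −0.047 to 0.027 on leaving out 1 library (0.0257 without 4OH-TAM A and 0.027 without gliomaspheres A), and Spred2 with no scaling factors, at −0.11 against controls and −0.073 against 4OH-TAM in gliomaspheres. Spred2 in gliomaspheres against controls passed the threshold with relative log expression factors (edgeR adjusted p = 0.0388), with a 5 CPM filter (edgeR adjusted p = 0.0461) and without gliomaspheres B. Depth limits Spry1 most, with 31 counts in 1 library of HER2CA day 15.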
